A study of Mus musculus with 6 samples.

Results

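The genes described here are 37 interferon-stimulated genes, the IFITM genes among them, listed by symbol for their known induction by interferon. Of these, 35 had a row in the table of 12101 genes deposited for the study, and all 35 were among the 12088 genes tested. The remaining members, *Ifit3* and *Mx1*, had no row and were not analysed here. RNA was sequenced from megakaryocyte-erythroid progenitors (MEPs), the bone marrow cells that give rise to red blood cells and to platelet-forming megakaryocytes, sorted from adult CD-1 mice. All mice carried the same pair of transgenes, an M2rtTA transactivator at the *Rosa26* locus and a *Nanog* gene under a tetracycline-responsive promoter at *Col1a1*, so that doxycycline (dox) switches on *Nanog* in any cell that expresses the transactivator. The dox group, 3 replicates, received dox in the drinking water for 5 days, and the untreated group, 3 replicates, had the same genotype without dox. No group without the transgene received dox, so an effect of dox itself and one of *Nanog* cannot be told apart. It is not stated whether replicates were single mice or pools, and the p-values measure the spread between these libraries only.

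Interferons are secreted proteins that bind receptors on the cell surface and, through JAK kinases, activate STAT factors, among them STAT2, which with IRF9 acts on a DNA element called the interferon-stimulated response element (ISRE). The genes under that element encode RNA sensors, restriction factors that block viral entry or replication, interferon-inducible GTPases, and parts of the antigen-processing machinery. In bone marrow, interferon acts on stem and progenitor cells as well as on immune cells, and IFITM proteins are known to be present in stem and progenitor cells also without interferon.

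To show what the members share in sequence, RefSeq promoter windows of GRCm38.p6 (a later build than that of the files) were searched from 250 bases before to 50 after each start site. For 31 of the 37 members there were 37 windows, since 5 members had more than 1. The ISRE, searched as GAAANNGAAA on both strands, was in 15 of these 37 windows, each of a different member, against 3.44% of all 32851 windows. The gamma-activated site (GAS), an element of the response to interferon gamma, searched as TTCNNNGAA, which reads alike on both strands, was in 10 of the 37, each of a different member, against 8.30% of all windows. These are matches of letters only. Sequences are given 5′ to 3′ on the strand of the gene, in lower case with ISRE matches in capitals. The first is the stretch before the RefSeq start site used for *Ifitm1*, the member with the largest log2 difference between the groups. It holds no match to either motif (chr7:140967826-140968075, plus strand), and other starts of that gene were not searched. The second is that of *Isg15* (chr4:156200819-156201068, minus strand), an often used marker of interferon response, which holds 3 overlapping ISRE matches.

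Ifitm1: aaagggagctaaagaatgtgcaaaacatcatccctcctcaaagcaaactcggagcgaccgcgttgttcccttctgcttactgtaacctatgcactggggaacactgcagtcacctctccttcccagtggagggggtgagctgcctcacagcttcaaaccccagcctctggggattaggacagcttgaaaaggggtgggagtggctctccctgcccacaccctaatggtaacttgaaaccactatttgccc
Isg15: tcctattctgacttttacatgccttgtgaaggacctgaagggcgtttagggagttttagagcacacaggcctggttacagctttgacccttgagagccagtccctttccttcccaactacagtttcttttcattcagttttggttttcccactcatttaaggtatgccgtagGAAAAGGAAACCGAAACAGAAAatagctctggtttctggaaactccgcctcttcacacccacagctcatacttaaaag

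The next stretches, of at most 30 bases, show the ISRE matches of the other IFITM members, of both RNA sensors and of the antiviral and GTPase members whose values are given below. They lie at chr7:140955988-140956017 (*Ifitm2*), chr7:141010715-141010744 (*Ifitm3*), chr2:62646206-62646233 (*Ifih1*), chr4:40239804-40239833 (*Ddx58*), chr19:34640784-34640813 (*Ifit1*), chr12:26456553-26456582 (*Rsad2*) and chr3:142620594-142620623 (*Gbp2*), on the plus strand for *Ifit1* and *Gbp2* and on the minus strand for the rest. The matches of *Ifitm3*, *Ifih1* and *Ddx58* lie after the start site and those of the other 4 before it.

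Ifitm2: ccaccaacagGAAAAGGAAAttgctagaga
Ifitm3: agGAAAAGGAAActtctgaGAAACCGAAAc
Ifih1: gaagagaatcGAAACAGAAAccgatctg
Ddx58: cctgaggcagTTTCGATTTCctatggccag
Ifit1: gTTTCACTTTCcagtctcagTTTCAGTTTC
Rsad2: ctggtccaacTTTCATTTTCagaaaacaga
Gbp2: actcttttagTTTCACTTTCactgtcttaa

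Expression was deposited as log2 of counts per 1000000 reads of the normalized library size (CPM), with 0.5 reads added. Libraries held between 11264803 and 16153600 reads on listed genes, 1 read was worth between 0.0642 and 0.0910 CPM, and 3 reads, taken as the least that can be told from 0, between 0.193 and 0.273 CPM, limits that cover counting error only. *Nanog* itself was at 1024 to 1460 CPM in the dox libraries and at 0.137 to 0.998 CPM in the untreated ones, as the labels have it. Differences were tested with limma on all 12088 genes with Benjamini-Hochberg adjustment, and an adjusted p under 0.05 counts as a call. Of all genes tested, 4.59% were called higher with dox and 3.18% lower. Of the marker lists for MEPs, 10 of 10 erythroid genes (*Gata1* and *Klf1* among them) and 8 of 10 megakaryocyte genes had a row. Their summed levels were 1527 to 2320 CPM with dox and 2492 to 2917 without for the erythroid list, and 127 to 431 with dox and 86.5 to 125 without for the megakaryocyte list. Of the erythroid genes, 7 had a lower mean with dox and 3 a higher one, and *Ermap* alone was called, as lower. Dox replicate 3 stood apart from the other dox libraries, with a megakaryocyte sum of 127 CPM against 431 and 422 in replicates 1 and 2. Without it, 14.9% of all genes tested were called higher and 14.0% lower.

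Of the 35 members tested, 2 rose with dox, *Ifitm1* and *Ifih1*, and none fell (limma, adjusted p), shares of the members close to those of all genes. The unadjusted p was under 0.05 for 8 members, all with a higher mean in dox-treated MEPs, and the same test had a p under 0.05 for 3533 of all 12088 genes. The dox and untreated libraries of 8 members did not overlap with dox higher, against 17.7% of all genes tested, and those of none did not overlap with dox lower, against 18.2% of all genes. These 8 were *Ifitm1*, *Ifih1*, *Ddx58*, *Usp18*, *Ifit1*, *Gbp2*, *Iigp1* and *Psmb8*. For each of them the two-sided exact permutation p was 0.1, the smallest that 3 libraries against 3 can give. The mean was higher with dox for 23 members and lower for 12. The median log2 fold change of the members was 0.17, with a range from -0.44 to 2.05, and that of all genes tested was -0.03.

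**Figure D1:**
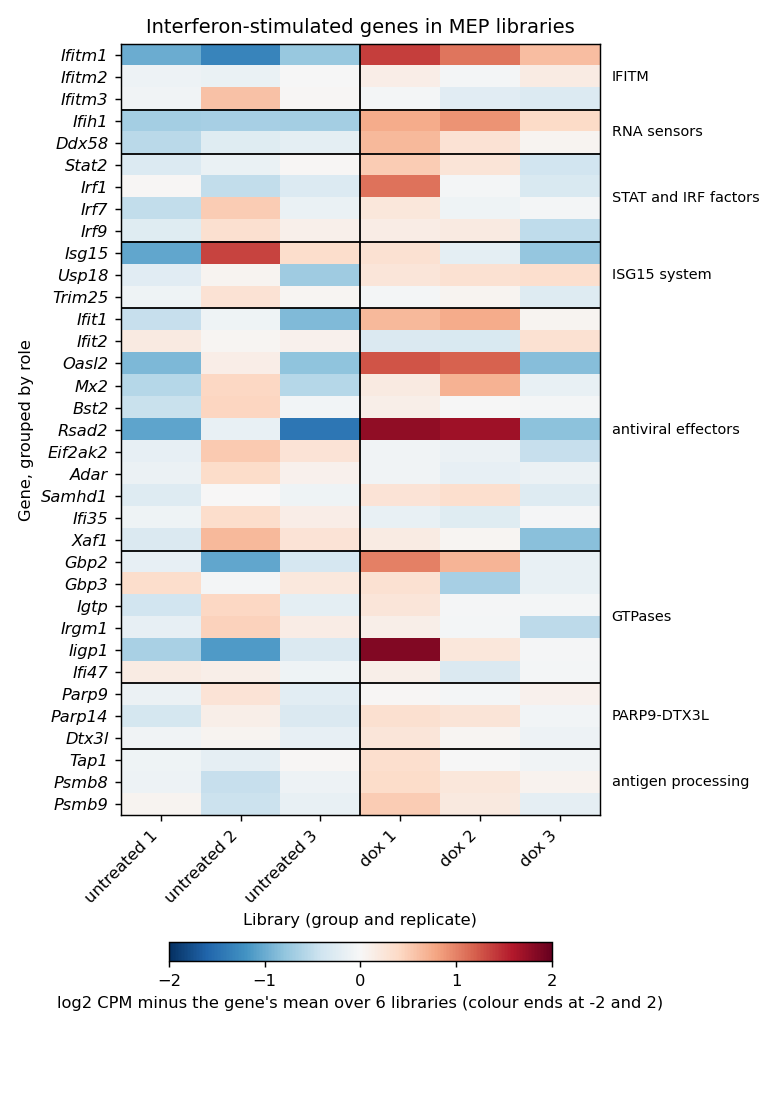
Log2 CPM of 35 interferon-stimulated genes (rows, grouped by role) in 3 untreated and 3 dox-treated MEP libraries (columns), each gene centred on its own mean over the 6 libraries. *Ifitm1* and *Ifih1* are high in every dox library, *Rsad2* and *Oasl2* in dox replicates 1 and 2 only, and many of the antiviral genes are highest among the untreated libraries in replicate 2.

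The IFITM genes encode small membrane proteins that hinder the fusion of viruses with the cell, and lie side by side on chromosome 7. On NCBIM37, *Ifitm2* spans 148140736 to 148141882 on the minus strand, *Ifitm1* 148153120 to 148155724 on the plus strand and *Ifitm3* 148195485 to 148196669 on the minus strand. *Ifitm1* was at 38.8, 31.2 and 22.7 CPM in dox replicates 1, 2 and 3 and at 7.50, 5.95 and 8.78 CPM in untreated replicates 1, 2 and 3. Every dox library was thus above every untreated one, and the lowest dox value was that of replicate 3. The dox libraries averaged 30.9 ± 8.01 CPM (SD, n = 3) and the untreated libraries 7.41 ± 1.42 CPM (SD, n = 3), and the difference of the mean log2 values was 2.05 (SE 0.24, limma adjusted p = 0.0133), or 4.13-fold. The rise missed the threshold without dox replicate 2 (adjusted p = 0.0556, limma) and without untreated replicate 1 (adjusted p = 0.0520), with log2 fold changes of 2.02 and 2.06.

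*Ifitm2* was at 144, 129 and 148 CPM in the dox libraries and at 123, 120 and 131 CPM in the untreated libraries. The groups overlapped, and all 6 values were within a narrow range. Its log2 fold change was 0.17 (95% interval -0.09 to 0.43, limma adjusted p = 0.336). *Ifitm3*, the member of the family best known for blocking influenza virus, was at 34.3, 30.04 and 29.1 CPM with dox and at 33.5, 52.7 and 35.8 CPM without. Untreated replicate 2 was the highest and the groups overlapped. Its log2 fold change was -0.36 (95% interval -0.84 to 0.13, limma adjusted p = 0.278). Both intervals end below the interval of *Ifitm1*, 1.45 to 2.64. Per kilobase of exon, untreated MEPs held 191 ± 8.93 CPM of *Ifitm2*, 60.0 ± 15.5 of *Ifitm3* and 6.77 ± 1.296 of *Ifitm1* (SD, n = 3). In dox-treated MEPs the levels per kilobase were 215 ± 15.5 for *Ifitm2*, 45.9 ± 4.07 for *Ifitm3* and 28.3 ± 7.33 for *Ifitm1*, the same order with a smaller distance between the last 2. Reads of these genes are in part ambiguous, since 9.16% of the 36-base words of *Ifitm1*, 19.2% of those of *Ifitm2* and 13.8% of those of *Ifitm3* also occur in other genes.

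Both cytosolic RNA sensors had higher values in every dox library. *Ifih1* encodes MDA5, which binds long double-stranded RNA and signals to the interferon genes. It was at 138, 155 and 108 CPM with dox and at 51.7, 51.9 and 51.7 CPM without. The untreated libraries hardly differed, and dox replicate 3 was the lowest of the dox libraries and still above them. Averages were 134 ± 23.96 CPM (SD, n = 3) in the dox libraries and 51.8 ± 0.128 CPM (SD, n = 3) in the untreated libraries, and the mean log2 values differed by 1.35 (SE 0.15, limma adjusted p = 0.0127), or 2.55-fold. The rise missed the threshold without dox replicate 1 (adjusted p = 0.0540, limma), untreated replicate 1 (0.0510) or untreated replicate 3 (0.0579), with log2 fold changes from 1.32 to 1.35. None of its 36-base words occur in another gene.

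*Ddx58* encodes RIG-I, the sensor of RNA with a 5′ triphosphate. It was at 34.6, 26.9 and 22.9 CPM in the dox libraries and at 15.3, 18.7 and 19.3 CPM in the untreated libraries. The groups did not overlap, with the smallest gap at dox replicate 3. The log2 fold change was 0.65 (95% interval 0.19 to 1.11) with a limma adjusted p of 0.0885, and it passed the threshold without dox replicate 3, at 0.79 (adjusted p = 0.0319).

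Among the 4 transcription factors of the pathway none passed the test, and none had an unadjusted p under 0.05. *Stat2*, a subunit of the complex that binds the ISRE, was at 66.7, 56.5 and 35.97 CPM with dox and at 38.8, 42.9 and 48.0 CPM without. Dox replicates 1 and 2 were above and dox replicate 3 below all untreated libraries. *Stat2* had a log2 fold change of 0.26 (95% interval -0.35 to 0.86, limma adjusted p = 0.517). *Irf9*, the DNA-binding subunit of the same complex, was at 74.3, 75.3 and 47.0 CPM with dox and at 56.5, 83.1 and 71.5 CPM without. Dox replicate 3 was again the lowest of all and untreated replicate 2 the highest. Its log2 fold change was -0.12 (95% interval -0.71 to 0.48, limma adjusted p = 0.770), and its sign turned without dox replicate 3 (0.11) or untreated replicate 2 (0.01).

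*Irf1*, which responds to interferon gamma and drives antigen-processing genes, was at 34.7, 16.0 and 13.3 CPM with dox and at 16.6, 11.6 and 13.5 CPM without. Only dox replicate 1 lay above the untreated range. *Irf1* had a log2 fold change of 0.50 (95% interval -0.43 to 1.43, limma adjusted p = 0.411). *Irf7*, the factor that amplifies the response by inducing interferon alpha genes, was at 27.7, 22.4 and 22.9 CPM with dox and at 16.9, 33.8 and 21.7 CPM without. The dox libraries lay inside the range of the untreated ones, in which replicate 2 had 2 times the level of replicate 1. The log2 fold change was 0.07 (95% interval -0.59 to 0.72, limma adjusted p = 0.888), and its sign turned without dox replicate 1 (-0.03) or untreated replicate 1 (-0.16).

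The ISG15 system attaches the ubiquitin-like protein ISG15 to other proteins and removes it. *Isg15* itself, added after its values were seen, was low, at 3.87, 2.72 and 1.83 CPM with dox and at 1.52, 7.94 and 3.96 CPM without, which is 19 to 107 reads a library. The highest and the lowest of the 6 values were both untreated. The log2 fold change was -0.44 with a 95% interval from -1.97 to 1.10 (limma adjusted p = 0.667), and it was 0.13 without untreated replicate 2. *Usp18*, which removes ISG15 and damps signaling at the interferon receptor, was at 8.58, 8.97 and 9.14 CPM with dox and at 6.18, 7.50 and 4.41 CPM without. The dox libraries were close together and above the untreated ones, and the log2 fold change was 0.59 (95% interval 0.09 to 1.09, limma adjusted p = 0.122). *Trim25*, a ubiquitin ligase that activates RIG-I, had a log2 fold change of -0.16 and its groups overlapped (limma adjusted p = 0.498).

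Of the 11 antiviral effectors measured none passed the test, 1 had an unadjusted p under 0.05 (*Ifit1*), and their median log2 fold change was 0.04. The IFIT proteins bind viral RNA. *Ifit1* was at 2.76, 2.94 and 1.83 CPM with dox and at 1.28, 1.66 and 0.955 CPM without, from 10 to 39 reads. Every dox library was above every untreated one, and the log2 fold change was 0.96 (95% interval 0.29 to 1.62, limma adjusted p = 0.0856), or 1.17 without dox replicate 3 (adjusted p = 0.0310). Part of its sequence is shared, with 9.28% of its 36-base words in other genes. *Ifit2*, singled out after its values were seen, was at 17.4, 17.2 and 26.3 CPM with dox and at 24.1, 21.8 and 22.8 CPM without. Dox replicates 1 and 2 were below all untreated libraries and replicate 3 above them. Its log2 fold change was -0.20 (limma adjusted p = 0.508), and -0.40 without dox replicate 3 (adjusted p = 0.0321).

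Dox replicate 3 was far below the other dox libraries for 2 effectors, also singled out after their values were seen. *Rsad2*, which encodes viperin, an enzyme that makes a chain-terminating nucleotide, was at 29.2, 27.6 and 4.84 CPM with dox and at 4.08, 7.65 and 3.14 CPM without. *Oasl2*, of the 2′-5′-oligoadenylate synthetase family, was at 20.7, 19.7 and 4.78 CPM with dox and at 4.63, 9.496 and 4.96 CPM without. For both, dox replicates 1 and 2 were above every untreated library and dox replicate 3 was inside the untreated range. The log2 fold change of *Rsad2* was 1.77 (95% interval -0.11 to 3.65, limma adjusted p = 0.190) and that of *Oasl2* 1.05 (-0.50 to 2.61, adjusted p = 0.313). Without dox replicate 3 both passed the threshold, *Rsad2* at 2.62 (adjusted p = 0.0175) and *Oasl2* at 1.75 (adjusted p = 0.0269). The summed megakaryocyte markers had the same order in the dox libraries, 431, 422 and 127 CPM against 86.5 to 125 CPM in the untreated ones. The order was not particular to that list. The granulocyte-monocyte, stem cell, plasmacytoid dendritic cell and B cell sums had it too, and the erythroid sum was highest in dox replicate 3. Of the 8 megakaryocyte markers, 5 had a higher mean with dox and 3 a lower one, with *Gp1ba* and *Gp9* called higher and *Vwf* called lower. The part of any of these lists in the values of *Rsad2* and *Oasl2* was not tested.

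*Samhd1*, an enzyme that breaks down nucleotides, likewise singled out after its values were seen, was at 160, 167 and 111 CPM with dox and at 110, 132 and 124 CPM without. It had the same pattern as *Rsad2* with a smaller difference, a log2 fold change of 0.23 (limma adjusted p = 0.435) and of 0.42 without dox replicate 3 (adjusted p = 0.0493). The other effectors overlapped between groups. *Mx2*, a dynamin-like GTPase, had a log2 fold change of 0.48, *Bst2*, which tethers budding virus, 0.04, *Adar*, which edits double-stranded RNA, -0.23, *Ifi35* -0.27, *Xaf1*, a regulator of cell death, -0.41, and *Eif2ak2*, which encodes the kinase PKR, -0.42, with limma adjusted p-values from 0.245 to 0.916. Of the 36-base words of *Mx2*, 10.2% also occur in *Mx1*.

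**Figure D2:**
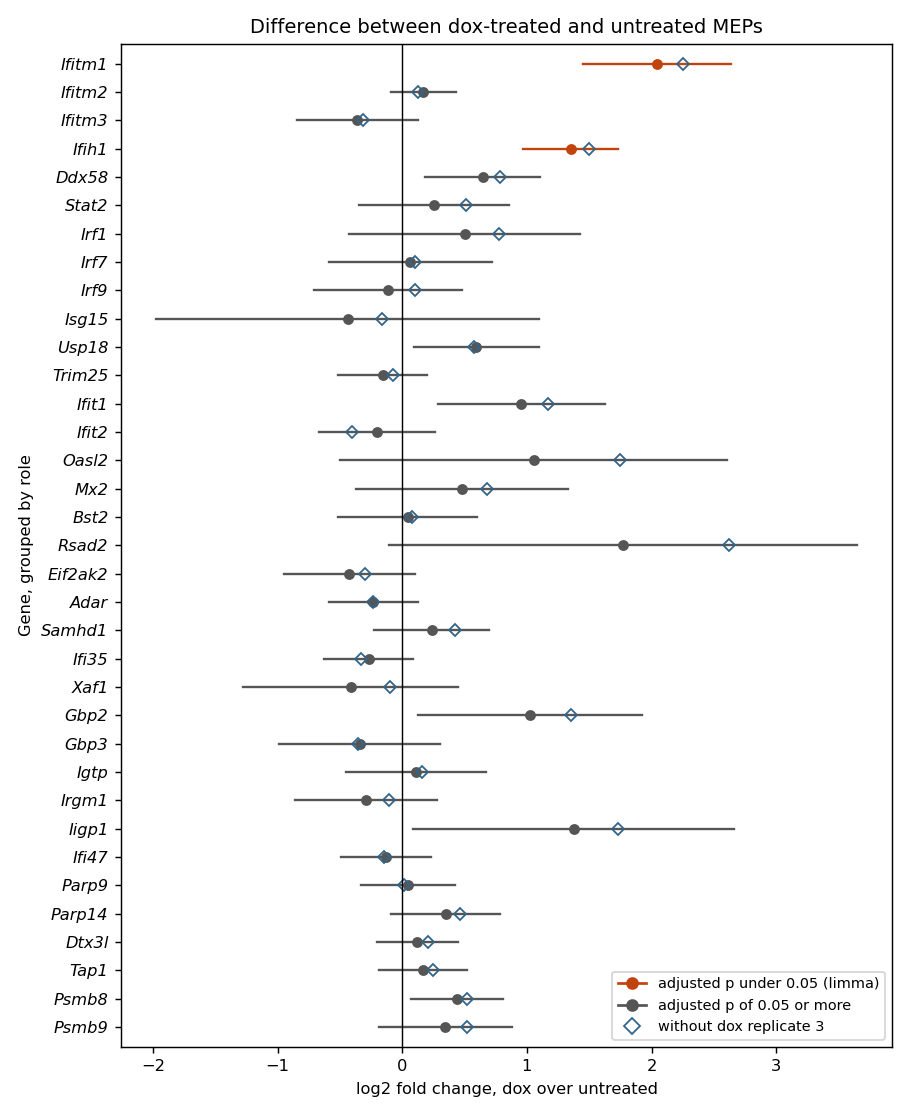
Log2 fold change of dox-treated over untreated MEPs (x axis) for 35 interferon-stimulated genes in order of role (y axis), as limma estimates with 95% intervals over 3 libraries a group. Open diamonds are estimates without dox replicate 3. The intervals of *Ifitm1* (1.45 to 2.64) and *Ifih1* (0.97 to 1.73) have the lower ends farthest to the right of 0. The diamonds of *Rsad2* and *Oasl2* lie well to the right of their points.

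The interferon-inducible GTPases attack the vacuoles of intracellular microbes. Of the 6 members none passed the test, although *Gbp2* and *Iigp1* did not overlap between groups and had an unadjusted limma p under 0.05. *Gbp2* was at 12.3, 9.86 and 5.55 CPM with dox and at 5.48, 2.99 and 4.87 CPM without. Dox replicate 3 was only just above untreated replicate 1. The log2 fold change was 1.03 (95% interval 0.13 to 1.92, limma adjusted p = 0.131), and 1.36 without dox replicate 3 (adjusted p = 0.0333). *Iigp1* was at 9.02, 2.94 and 2.47 CPM with dox and at 1.59, 1.15 and 2.05 CPM without. Most of the difference lay in dox replicate 1, and the log2 fold change was 1.38 (95% interval 0.09 to 2.67, limma adjusted p = 0.150). *Igtp* (0.11), *Ifi47* (-0.13), *Irgm1* (-0.29) and *Gbp3* (-0.34) overlapped between groups, and 12.5% of the 36-base words of *Igtp* also occur in *Irgm2*.

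The PARP9-DTX3L complex joins ADP-ribose and ubiquitin to chromatin proteins and strengthens the interferon response. *Parp9*, *Dtx3l* and *Parp14* had log2 fold changes of 0.05, 0.12 and 0.35 and none passed the test (limma adjusted p from 0.246 to 0.858). *Parp9* and *Dtx3l* overlap on opposite strands, over 9.40% and 8.001% of their exon bases, and whether reads were counted by strand is not stated.

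The members for antigen processing, which cut and carry peptides for MHC class I, all had a higher mean with dox. *Psmb8*, an immunoproteasome subunit, was at 111, 101 and 90.2 CPM in the dox libraries and at 80.4, 62.7 and 80.8 CPM in the untreated libraries. The groups did not overlap, and the log2 fold change was 0.44 (95% interval 0.07 to 0.81, limma adjusted p = 0.121). *Tap1*, a subunit of the peptide transporter, had a log2 fold change of 0.17 and *Psmb9*, the neighbouring immunoproteasome gene, one of 0.35, both with overlapping groups (limma adjusted p = 0.471 and 0.330). The table holds a second gene model over 99.97% of the exon bases of *Psmb9*, so that its reads were split. With both models summed, *Psmb9* was at 64.0, 53.2 and 39.1 CPM with dox and at 45.02, 34.5 and 43.4 CPM without, and the groups still overlapped.

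**Figure D3:**
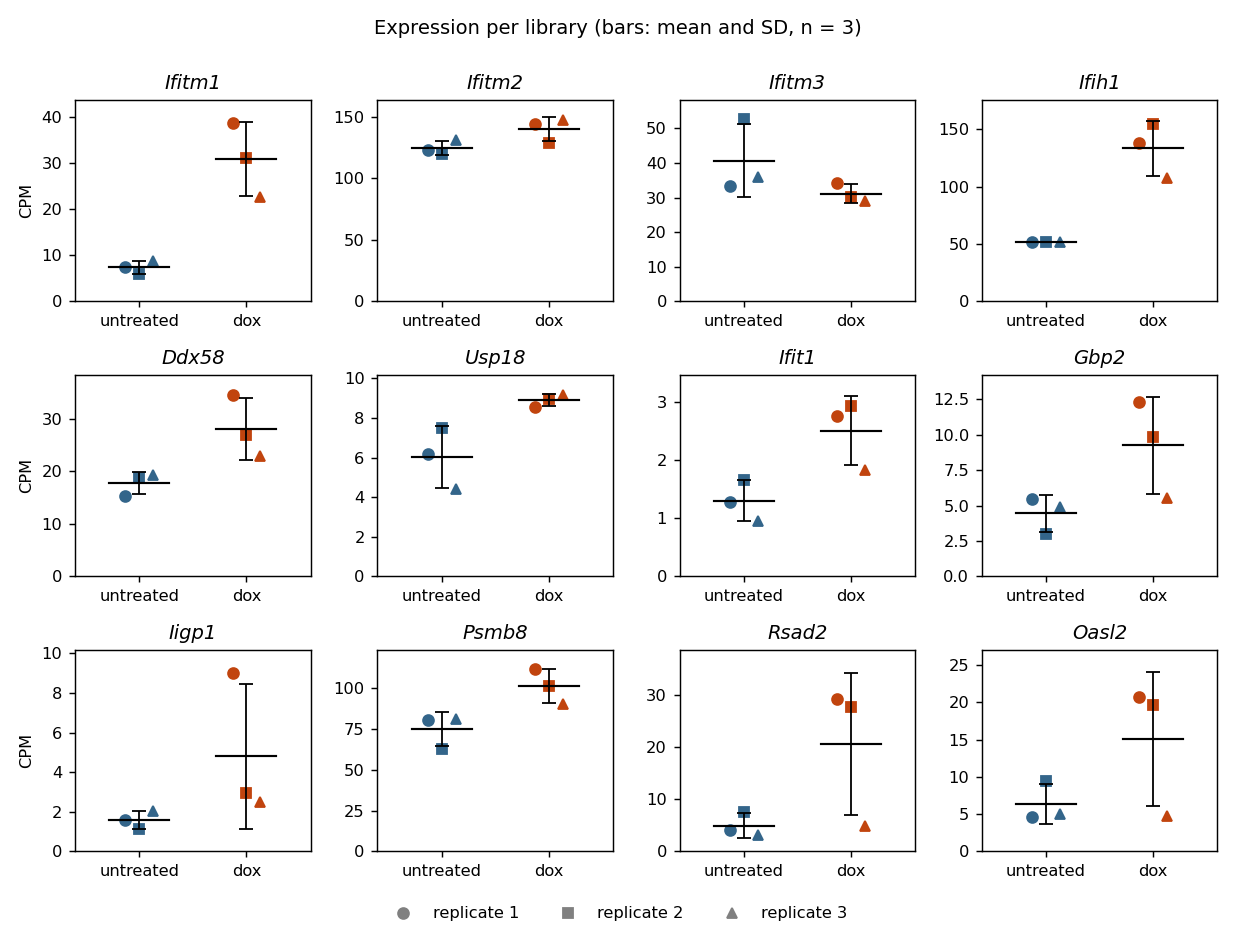
Expression in CPM (y axis, from 0) of 12 interferon-stimulated genes in each untreated (blue) and dox-treated (orange) MEP library, with marker shapes for replicates and bars for the mean and SD of 3 libraries. *Ifitm1* and *Ifih1* separate by more than their spread, *Ifitm2* and *Ifitm3* overlap, and *Rsad2* and *Oasl2* have dox replicate 3 at the untreated level (4.84 and 4.78 CPM).

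Per kilobase of exon, the members in untreated MEPs ranged from 0.490 ± 0.133 CPM (*Ifit1*) and 0.511 ± 0.144 CPM (*Iigp1*), which did not differ beyond their spread, to 191 ± 8.93 CPM (*Ifitm2*). After *Ifitm2* came *Ifitm3* at 60.0 ± 15.5 and *Bst2* at 42.2 ± 12.8 CPM per kilobase, whose spreads overlapped, then *Psmb8* at 27.3 ± 3.79 and *Tap1* at 25.7 ± 1.79 (SD, n = 3). Members with low levels, such as *Ifit1*, *Iigp1* and *Mx2* (10 to 122 reads a library), were measured with less precision than *Ifih1* (568 to 2078 reads) or *Ifitm2* (1441 to 2301 reads).

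Within each group, 1 library was the highest for most members. Dox replicate 1 had the highest level of the dox libraries for 24 of the 35 members, against 29.0% of all genes tested, and dox replicate 3 the lowest for 26, against 44.2% of all genes tested. Untreated replicate 2 was the highest of the untreated libraries for 22 of the 35, against 37.2% of all genes tested, and for 10 of the 11 antiviral effectors. Across all 6 libraries, dox replicate 1 and untreated replicate 2 each held the highest level of 13 members. Of the 9 marker lists, the summed B cell genes alone were highest in both of these libraries within their groups, at 25.5 CPM in dox replicate 1 (10.7 and 8.79 in replicates 2 and 3) and at 17.7 CPM in untreated replicate 2 (12.6 and 8.73 in replicates 1 and 3), with 6 of 8 markers listed. Dox replicate 1 was also the highest dox library for the megakaryocyte, granulocyte-monocyte, stem cell and plasmacytoid dendritic cell sums, and untreated replicate 2 the highest untreated one for the erythroid sum. The part of these cells in the levels of the members was not tested.

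Dox replicates 1 and 2 were above every untreated library while replicate 3 was not for 6 members, *Stat2*, *Oasl2*, *Rsad2*, *Samhd1*, *Parp14* and *Psmb9*, against 13.4% of all genes tested. Without dox replicate 3, limma called 8 members higher and 1 lower, against 14.9% and 14.0% of all genes. The 8 were *Ifitm1*, *Ifih1*, *Ddx58*, *Ifit1*, *Oasl2*, *Rsad2*, *Samhd1* and *Gbp2*, and the 1 was *Ifit2*. The median log2 fold change of the members was then 0.20.

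The differences were also read by promoter motif. The 14 measured members with an ISRE match had a median log2 fold change of 0.14, a range from -0.44 to 1.77 and a higher mean with dox in 9. The 16 measured members with a window but no match had a median of 0.09, a range from -0.41 to 2.05 and a higher mean in 9. Of the members that rose, *Ifih1* had a match and *Ifitm1* had none in the 1 window searched. *Isg15*, with 3 matches, had a log2 fold change of -0.44. The 10 measured members with a GAS match had a median of -0.08 and the 20 without one 0.17.

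Beyond the members, 170 further gene symbols of the pathway were read from lists set by role, of which 118 had a row and were tested. The gene of cGAS was listed under 2 symbols, of which 1 had a row. Of the 118, 3 rose and 6 fell (limma, adjusted p under 0.05), where 4.59% and 3.18% of all genes tested were called higher and lower, and the median log2 fold change was 0.11. Interferon genes themselves, 21 in all, had no row. The receptor chains for interferon alpha and beta had log2 fold changes of 0.19 (95% interval -0.31 to 0.68, limma adjusted p = 0.561) for *Ifnar1* and 0.05 (-0.17 to 0.27, adjusted p = 0.753) for *Ifnar2*, at 32.9 to 50.1 and 59.1 to 62.8 CPM over all libraries. *Ifngr1* and *Ifngr2*, the chains of the interferon gamma receptor, had log2 fold changes of -0.50 and 0.26 (limma adjusted p = 0.215 and 0.736), and *Ifngr2* was at -0.07 without dox replicate 1 and at 0.80 without dox replicate 3 (adjusted p = 0.0217). *Il28ra*, the interferon lambda receptor chain, fell, from 2.68, 1.74 and 2.14 CPM in the untreated libraries to 0.626, 0.335 and 0.545 CPM with dox, a log2 fold change of -2.15 (limma adjusted p = 0.0163). Its call was lost without untreated replicate 1 (adjusted p = 0.0610) or 3 (0.0702). *Ly6a*, an interferon-inducible gene that encodes the Sca1 antigen absent from the sorted cells, had no row.

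Among the genes of sensing and its control, *E330016A19Rik*, the gene of the DNA sensor cGAS, rose, from 21.4, 17.8 and 19.2 CPM to 33.2, 29.9 and 26.5 CPM with dox, a log2 fold change of 0.61 (limma adjusted p = 0.0488). Its call was lost on leaving out any single library other than dox replicate 3 (adjusted p from 0.0953 to 0.166), and with libraries scaled to their median gene (0.0511). *Isg20*, an RNA exonuclease, fell, with 56.0, 66.4 and 53.0 CPM without dox and 20.8, 17.0 and 31.4 CPM with it, a log2 fold change of -1.38 (limma adjusted p = 0.0321, and 0.0876 to 0.112 on leaving out any one library other than dox replicate 3). *Irf8*, a factor that directs monocyte and dendritic cell fate, fell by 2.41 on the log2 scale (limma adjusted p = 0.0185), from 20.2 to 44.9 CPM in the untreated libraries to 5.25 to 8.06 CPM with dox. Its adjusted p was 0.0501 to 0.0783 without dox replicate 1 or 2 or untreated replicate 1 or 3.

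Of the p200 family of DNA-binding interferon-inducible proteins, *Ifi205* had no reads in any dox library and 1.32 to 1.90 CPM in the untreated libraries, at least 6.96-fold lower when 3 reads per library are taken as the floor. The list of other interferon-stimulated genes, 51 measured and *Isg20* again among them, ranged in log2 fold change from -3.31 (*Ly6c2*) to 3.23 (*Slfn5*), with 2 higher and 3 lower by the test. *Ly6c2*, a monocyte surface antigen, was at 78.0 to 174 CPM without dox and at 11.4 to 13.5 CPM with it (limma adjusted p = 0.00828). *Ccl5*, a chemokine, fell from 1.59 to 2.87 CPM to 0.335 to 0.738 CPM (log2 fold change -2.27, limma adjusted p = 0.0241), and lost its call without any one library other than dox replicate 3 (adjusted p from 0.0525 to 0.0894). The genes that rose, named after their values were seen, were *Trim34a* (log2 fold change 0.76, limma adjusted p = 0.0403) and *Xrn1*, an RNA exonuclease (0.54, adjusted p = 0.0489), both of which lost their call without any one library other than dox replicate 3 (adjusted p from 0.0964 to 0.166). Both calls are also lost under another scaling, that of *Trim34a* with quantile normalization (adjusted p = 0.0552) and that of *Xrn1* with median-gene scaling (0.0584). *Slfn5*, chosen for its size, was at 13.4, 13.3 and 1.25 CPM with dox and at 0.583, 0.776 and 0.591 CPM without. It had the order of *Rsad2* in the dox libraries and an adjusted p of 0.0886 (limma), or 0.00206 without dox replicate 3. Its log2 fold change was 4.37 without dox replicate 3 and 2.66 without dox replicate 1. None of the 18 genes of MHC class I presentation was called, with a median log2 fold change of 0.11, and 3 had an unadjusted p under 0.05.

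*Irf8* and *Ly6c2* are also markers of myeloid cells. The granulocyte-monocyte list, which holds *Ly6c2*, summed to 502 to 742 CPM with dox and to 2347 to 5408 CPM without, and 8 of its 10 genes fell. The stem cell list, of which 6 of 8 had a row, summed to 112 to 250 CPM with dox and 41.4 to 99.8 CPM without. Of these 6, 4 had a higher mean with dox and 2 a lower one, and none was called. The plasmacytoid dendritic cell list, of cells known for making interferon, had a row for 3 of 10 genes, with its defining marker *Siglech* without one, and summed to 88.3 to 110 CPM with dox and 70.8 to 113 CPM without. Of these 3, *Irf8* fell and the other 2 had a higher mean with dox. Of the T and NK cell list 1 of 8 had a row, none of the CD3 genes among them, and it summed to 7.77 to 9.72 CPM with dox and 24.7 to 51.3 CPM without. The macrophage list, with 7 of 9, summed to 20.2 to 25.0 CPM with dox and 24.2 to 63.3 CPM without, though 5 of its 7 genes had a higher mean with dox, with *C1qc* called higher and *Vcam1* called lower. The mast cell and basophil list, with 3 of 7, summed to 59.9 to 81.4 CPM with dox and 8.09 to 15.8 CPM without. Of these 3, *Cpa3* and *Ms4a2* were called higher and *Mcpt8* had a lower mean with dox. In bulk libraries fewer cells of a type and less RNA per cell cannot be told apart, and the part of these cells in the differences above was not tested.

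**Figure D4:**
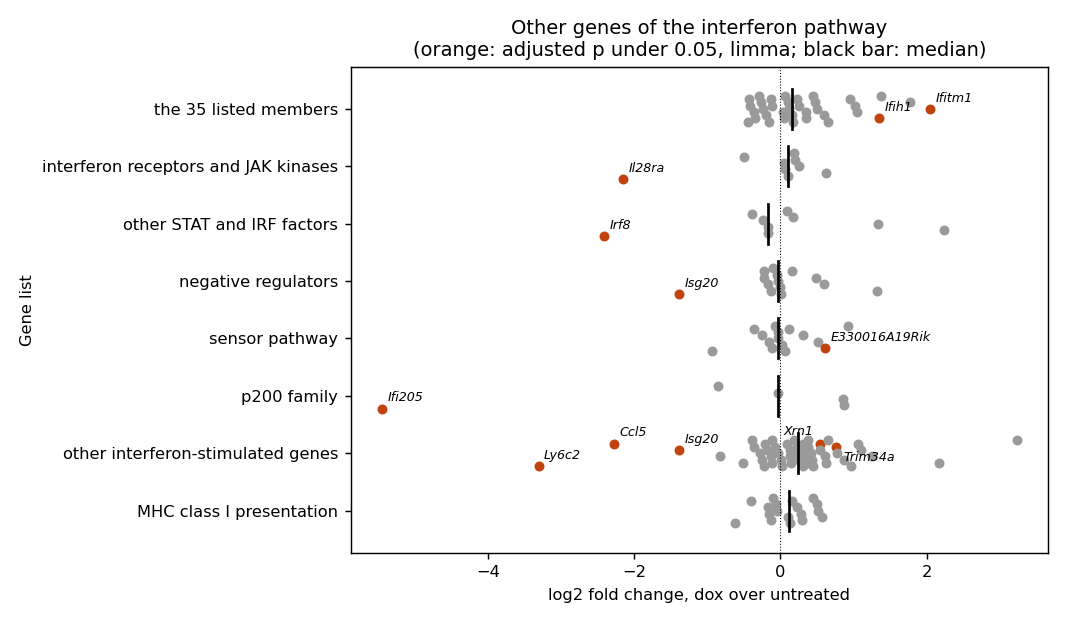
Log2 fold change of dox-treated over untreated MEPs (x axis) for the 35 members and for 7 lists of other interferon pathway genes (y axis), 1 point a gene, with calls at an adjusted p under 0.05 (limma) in orange and the median of each list as a black bar. The medians lie near 0, with 0.17 for the members, and the point of *Ifi205*, which has no reads with dox, depends on the reads added and is no measure of size.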

How the data were processed

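RNA-seq of sorted MEPs was used from 3 dox-treated and 3 untreated replicates. After adapter trimming with Cutadapt, the authors quantified reads against Ensembl transcripts of NCBIM37 by RSEM and used limma for normalization. The deposited values are log2 CPM with 0.5 reads added, one column per replicate. The use of strand is not given in the sources used here. Whole reads were recovered from these values (largest deviation 6.64e-09 reads). Genes that reached 1 CPM in 3 or more libraries were tested with limma 3.58.1 (R 4.3.3, lmFit and eBayes, no block or weights), and p-values were adjusted by Benjamini-Hochberg over 12088 genes. Fold changes keep the 0.5 added reads and so understate changes of low genes. The fit was also run on simulated reads. These had the same dispersion for every gene and no library that stood apart, unlike these data, so that run does not show how the fit performs here. Shared sequence and exon lengths came from the NCBIM37 GENCODE annotation, a release close to the authors', which held 12067 of the listed genes. Promoters came from RefSeq (GRCm38.p6), for 31 of 37 members. Figures used Python 3.11.15 and matplotlib 3.10.9.

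The rule for the members uses no measured value, but the members and gene lists were chosen with earlier results of these data known. Values per library were given for members past the threshold, members whose groups did not overlap, the IFITM genes and the STAT and IRF factors. Of the pathway lists, up to 3 genes past the threshold per list were named, with *Ly6a* and 4 receptor chains whatever their p. A further gene listed beside these is not reported here. Genes added after their values were seen are marked as such. Alternatives changed the scaling, weights, filter, block, variance model and added reads, and left out each library in turn.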

Additional observations from a re-analysis of the deposited data

How the results depend on the processing

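The median log2 fold change of the members stayed positive under every alternative run (0.05 to 0.25 on leaving out each library in turn). The members called higher, 2 as reported, were 11 with array quality weights, 0 with the replicate block, and 0 to 8 on leaving out 1 library. Members called lower, 0 as reported, were 1 with array quality weights and 0 to 1 on leaving out 1 library. Over all genes, array quality weights gave 2515 higher and 2601 lower, and a mean-variance trend gave 909 and 747. The replicate block gave 53 and 29, and leaving out 1 library gave 92 to 1801 and 36 to 1687, highest without dox replicate 3. The causes of these shifts were not tested. Same-numbered libraries did not deviate together (correlations 0.0184, -0.121 and -0.299), so the numbers were not taken as pairs. With the replicate block, *Ifitm1* had an adjusted p of 0.0677 and *Ifih1* one of 0.0654 (limma), and with the block and voom precision weights together 0.00727 and 0.00387, where 3 members were called higher, and over all genes 575 were higher and 351 lower. Of the other pathway genes, *Isg20*, *E330016A19Rik*, *Ccl5*, *Trim34a* and *Xrn1* lost their calls with the block (adjusted p 0.113, 0.144, 0.0578, 0.153 and 0.173), and with the added weights *Il28ra* (0.0569) and these other than *Isg20* (0.0532 to 0.0787). *Ifitm1* was called in 14 of 17 alternatives (log2 fold change 1.87 to 2.25) and *Ifih1* in 13 of 17. Signs turned for *Irf9* with array quality weights (0.11). On leaving out 1 library, signs turned for *Irf9* (-0.27 to 0.11), *Irf7* (-0.16 to 0.34), *Isg15* (-1.07 to 0.13) and *Ifngr2* (-0.071 to 0.799). Of 554 values for 33 named genes, 472 kept direction and call, 51 lost a call, 24 gained one and 7 turned sign. Genes of a few reads, such as *Ifit1*, carry a larger relative counting error, whose part in their spread between libraries was not tested.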
